A study of Mus musculus with 6 samples.

Results

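Bpifb6, Clec3b, Fam20c, Cyp2d9, Cd151, Slc16a12, Pkp2 and Adap2 are 8 genes whose signal in inguinal fat was higher in mice that gained much weight on a high-fat diet than in mice that gained little. They were chosen by a large rise in exactly that comparison, with imprinted genes set aside, and together they cover secreted proteins, a kinase, an oxidase, adhesion proteins, a transporter and a signaling protein. Each gene had 1 probe that the annotation assigns to a single symbol, so that 8 of the 33012 probes on the array, and 8 of the 13840 genes they name, are described here. All 8 had a value on all 6 arrays, as did 15821 probes in all. Because the rise itself chose the genes, their ratios are given as a description and carry no test, and tests are given only for other genes.

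The high gainers and the low gainers were male C57BL/6J mice, all fed the high saturated fat diet D12331 for 4 weeks starting at 8 weeks of age. They were singly housed, from weaning by the labels but only some weeks later by the study's methods. Total RNA of 8 mice was pooled for each group, and each pool was measured on 3 one-color arrays of the whole mouse genome with chemiluminescent detection. The 3 arrays of a pool were technical repeats, so that n counts arrays, the errors hold the technical spread only, and variation among mice cannot be seen. Mice on a low-fat diet are not part of the comparison, and both groups share the diet, the strain and the depot. Of 22 adipocyte markers 17 were named by a probe, all 17 had a value on all 6 arrays, and none was blank; these markers show fat but not which depot. Their summed signal ran from 12972682 to 13427413 in high gainers and from 11897578 to 12633745 in low gainers. In pooled tissue RNA, fewer cells of a type and less RNA per cell cannot be told apart.

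Inguinal fat is the large subcutaneous depot of the mouse. When it takes up more fat, adipocytes enlarge and the surrounding matrix, vessels and progenitor cells are remodeled, and the depot secretes proteins into its own matrix and into blood. The 8 genes stand at different points of such a tissue. Bpifb6 belongs to the lipid-binding BPI fold family, and Clec3b (tetranectin) is a secreted C-type lectin that binds plasminogen. Fam20c is the Golgi kinase that phosphorylates many secreted proteins, and Cyp2d9 is a cytochrome P450 known as a testosterone hydroxylase of male mouse liver. Cd151 is a tetraspanin that partners with laminin-binding integrins, and Pkp2 (plakophilin) links cadherins to intermediate filaments at desmosomes. Slc16a12 is a monocarboxylate transporter family member that carries creatine, as shown with the human protein, and Adap2 (centaurin alpha) is a phosphoinositide-binding protein that activates the GTPase of Arf6.

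The start regions of the genes are shown to let their sequences be compared, since genes that share a direction need not share a promoter type. RefSeq promoter windows of 300 bases (250 before and 50 after the start, build GRCm38.p6) were matched for 6 of the 8 genes, Bpifb6, Fam20c, Cyp2d9, Cd151, Slc16a12 and Adap2, and Clec3b and Pkp2 are named only. The following 4 stretches are the 120 bases before the start of Bpifb6 (chr2:153900268-153900387), Fam20c (chr5:138754961-138755080), Cyp2d9 (chr15:82452257-82452376) and the first Cd151 window (chr7:141467242-141467361), all on the plus strand, with matches to the searched motifs in capitals.
Bpifb6: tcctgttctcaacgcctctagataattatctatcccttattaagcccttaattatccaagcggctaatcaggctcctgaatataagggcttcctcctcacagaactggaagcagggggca
Fam20c: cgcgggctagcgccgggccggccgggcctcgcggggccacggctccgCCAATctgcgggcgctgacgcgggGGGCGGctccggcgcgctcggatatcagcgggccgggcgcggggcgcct
Cyp2d9: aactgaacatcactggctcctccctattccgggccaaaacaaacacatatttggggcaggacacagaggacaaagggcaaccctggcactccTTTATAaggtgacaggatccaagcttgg
Cd151: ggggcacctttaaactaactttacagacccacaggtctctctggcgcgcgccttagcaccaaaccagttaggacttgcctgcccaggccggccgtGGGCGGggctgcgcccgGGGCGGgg

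These windows differed widely in base composition. The Fam20c window had 80.7% G and C and 47 CpG dinucleotides, at the percentiles 99.2 and 98.6 of all 32851 windows of the same length, whereas the Cyp2d9 window had 49.0% G and C and 1 CpG, and the Bpifb6 window 51.0% and 3. The medians over all windows were 52.7% and 7 CpG. Slc16a12 had 16 CpG, Adap2 had 18, and the 2 windows of Cd151 had 20 and 4. Both strands were searched for 6 motifs. TATAAA was found only in the window of Cyp2d9 among the 6 genes, where it lies on the minus strand 28 bases before the start and appears above as TTTATA, and 13.6% of all windows hold it. GGGCGG was found in the windows of 3 genes (Fam20c, Cd151 and Adap2) and in 35.7% of all windows, and CCAAT in those of 2 (Fam20c and Cyp2d9) and in 37.4%. CACGTG was found in that of Slc16a12 (7.15% of all windows), AGGTCA in those of Cd151 (16.3%) and TGACTCA in none of the 6 (5.2%). No motif among the 6 was found in more than 3 of the genes. A match is a run of letters and not a site of binding.

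**Figure D1:**
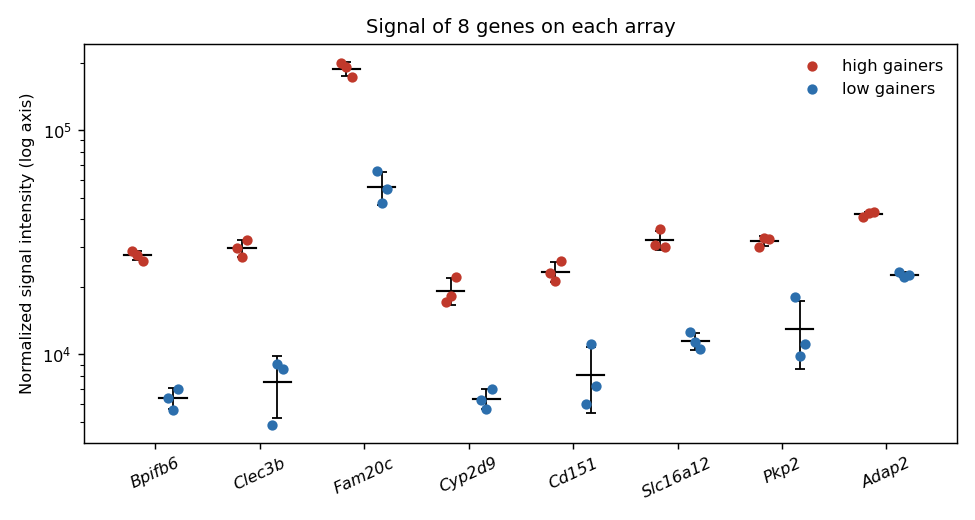
Normalized signal intensity (log axis) of the 8 genes on each of the 3 arrays of high gainers (red, left of each pair) and low gainers (blue, right of each pair); horizontal lines are means and whiskers are SDs over 3 arrays. For every gene the 3 red points lie above the 3 blue points, and the blue points of Clec3b, Cd151 and Pkp2 are spread most widely.

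The signal of each gene was higher on each of the 3 arrays of high gainers than on any of the 3 arrays of low gainers, and 7 of the 8 were at least 2-fold higher. Over all tested probes, 20.3% showed the same lack of overlap in that direction. The rule applied to other genes (limma, a fold of 1.5 or more together with a p adjusted by the Benjamini-Hochberg method under 0.01) would call 8 of 8, beside 2.50% of all tested probes called higher and 3.99% called lower. Both counts were fixed by how the genes were chosen, so nothing is read from them. Below, intensities are the deposited quantile-normalized signals, and errors are SDs over 3 arrays.

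Bpifb6 had the largest ratio of the 8. Its signal was 28976, 27734 and 26178 in high gainers and 6404, 5655 and 7023 in low gainers, means of 27629 ± 1402 and 6361 ± 685, and a fold of 4.36 between the geometric means (log2 ratio 2.12). The pairs of single arrays gave folds between 3.73 and 5.12, so that the 2 pools were far apart on every array. Among the 8883 tested probes with 1 symbol its fold ranked 3. Bpifb6 is known as a protein of the endoplasmic reticulum, unlike most of its family, which are secreted.

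Only 4 of 16 other BPI, LBP and PLUNC family genes were tested, and they went different ways. Lbp, the plasma protein that passes bacterial lipopolysaccharide to its receptors, rose to 484421, 503140 and 507658 in high gainers, against 169667, 159863 and 178976 in low gainers, which is 2.94-fold (limma adjusted p = 0.000174). Bpifb3, the direct chromosomal neighbor of Bpifb6, fell 2.09-fold, with 3455 ± 171 in high gainers and 7233 ± 763 in low gainers (limma adjusted p = 0.000879). So 1 of the 4 rose and 1 fell, against 2.91% and 4.04% of all 8596 genes tested. For the counts given further on, an unadjusted p under 0.05 was reached by 18.3% of all these genes with a higher signal and by 12.5% with a lower one, and 56.6% had a log2 ratio above 0. In the BPI family the median log2 ratio was -0.23 against 0.037 over all genes. Lbp and Bpifb3 were called in each of the 6 fits that left out 1 array.

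Clec3b had signals of 29645, 27060 and 32212 in high gainers and of 4855, 9009 and 8615 in low gainers. The means were 29639 ± 2576 and 7493 ± 2293, and the fold was 4.09 (log2 ratio 2.03). Low gainers replicate 1 stood well under the other two low-gainer arrays, so that single pairs of arrays gave folds between 3 and 6.63. Without that array the log2 ratio was 1.75, the lowest value with any 1 array left out.

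Tetranectin binds plasminogen, and 4 of 17 listed genes of plasminogen activation were tested. All 4 had ratios above 0 (56.6% of all genes did), 2 were called higher (2.91% of all genes) and none lower, and the median log2 ratio was 0.46. Plat, the tissue plasminogen activator, rose to 50738 ± 993 in high gainers, against 31227 ± 1420 in low gainers (1.63-fold, limma adjusted p = 0.00223). Thbd, the thrombin receptor of the vessel wall, rose to 164590 ± 5442 in high gainers, against 108482 ± 10582 in low gainers (1.52-fold, limma adjusted p = 0.00849), while S100a10, a cell surface receptor of plasminogen, had a log2 ratio of 0.03. Vascular and fibroblast markers also had mostly positive ratios. Of 13 tested fibroblast and progenitor markers, 10 were above 0 (median 0.39). Among them 2 were called higher (Dpt, 2.27-fold, limma adjusted p = 0.00202, and Pi16, 1.98-fold, adjusted p = 0.000779) and 1 lower (Thy1). All 11 tested endothelial markers were above 0 (median 0.31, 6 at an unadjusted p under 0.05, 0 called), with summed signals of 963042 to 1050463 in high gainers and 744256 to 829353 in low gainers, and so were 11 of 13 smooth muscle and pericyte markers (median 0.48, 10 at an unadjusted p under 0.05, 0 called), with sums of 484861 to 511107 in high gainers and 362344 to 369667 in low gainers. None was blank on all arrays, and their part in the result was not tested. The calls of Plat and Thbd were both lost in the fits that omitted the arrays high 1, high 2 or low 3, numbered by replicate. That of Thbd was also lost in those that omitted high 3 or low 2 (largest adjusted p 0.0163 for Plat and 0.0448 for Thbd). Neither was called once the adipocyte markers were set to no change (adjusted p = 0.0218 for Plat and 0.1 for Thbd).

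The Clec family holds many other lectins, most of them receptors on blood cells. Of 14 tested, none was called higher and 4 were called lower by limma, with a median log2 ratio of 0.04, and at an unadjusted p of 0.05 the counts were 2 higher and 5 lower. The 4 were Clec2i (2.96-fold lower), Clec9a, a receptor of dendritic cells (2.37-fold lower), Clec4n, a receptor for fungal sugars on macrophages (1.96-fold lower), and Clec1b, the podoplanin receptor of platelets (1.63-fold lower). Clec2i and Clec9a were called whichever array was left out, and Clec4n and Clec1b only without low gainers replicate 1 (largest adjusted p 0.0277 and 0.0191). Clec4b1 had the highest ratio of the list at 0.59 on the log2 scale (adjusted p = 0.0399).

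Fam20c gave signals of 198746, 191872 and 173146 in high gainers and of 65990, 47144 and 54418 in low gainers. The means were 187921 ± 13249 and 55851 ± 9504, and the fold was 3.39 (log2 ratio 1.76). The lowest high-gainer array was still 2.62-fold above the highest low-gainer array. Its log2 ratio lay between 1.65 and 1.89 whichever array was left out.

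Fam20c has close relatives, Fam20a, a pseudokinase that activates it, and Fam20b, a xylose kinase of proteoglycan synthesis, and more distant ones among the secretory pathway kinases. Fam20a had signals of 4257 ± 864 in high gainers and 3082 ± 700 in low gainers (log2 ratio 0.47, limma adjusted p = 0.178), and Fam20b 9157 ± 2140 in high gainers and 7737 ± 1002 in low gainers (0.22, adjusted p = 0.486). The 3 arrays of each pool overlapped for both, and neither gene was called. Of the 7 tested kinases of the list, 2 rose, none fell and the median log2 ratio was 0.27. Gask1b, a Golgi-associated kinase-like protein, rose to 91791 ± 5239 in high gainers, against 55987 ± 4463 in low gainers (1.64-fold, limma adjusted p = 0.00388), and Dipk1b rose to 44841 ± 3839 in high gainers, against 28765 ± 1725 in low gainers (1.56-fold, adjusted p = 0.00704). Dipk1a was lowest with a log2 ratio of -0.11. Leaving out any 1 array ended the call of Dipk1b, and any but low gainers replicate 1 ended that of Gask1b (largest adjusted p 0.0318 and 0.0212), and neither was called with the adipocyte markers set to no change (adjusted p = 0.0627 and 0.0451).

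Proteins that Fam20c phosphorylates, among them matrix proteins, growth factor binding proteins and plasma proteins, showed no call. Of 12 tested, 0 were called in either direction by limma, and at an unadjusted p of 0.05 there were 5 higher and 1 lower of the 12, against 18.3% and 12.5% of all genes, with a median log2 ratio of 0.12. Igfbp5, an insulin-like growth factor binding protein, was highest with a log2 ratio of 0.64 (adjusted p = 0.0405), and Fgg, the fibrinogen gamma chain, was lowest with -0.32 (adjusted p = 0.113).

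Cyp2d9 had signals of 17165, 18230 and 22152 in high gainers and of 6257, 5703 and 6997 in low gainers. The means were 19182 ± 2626 and 6319 ± 649, and the fold was 3.03 (log2 ratio 1.60). High gainers replicate 3 was the highest of its pool, and without it the log2 ratio was 1.49. The mouse Cyp2d genes are near-identical copies in a cluster, so that the probe may read several of them and the share of Cyp2d9 itself is uncertain.

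The probes of 3 other Cyp2d genes had a value on every high-gainer array but not on every low-gainer array. These probes were singled out after their values were seen. Cyp2d10, the gene next to Cyp2d9, had 3684, 4272 and 5317 in high gainers and 2114 and 1796 on the low-gainer arrays 1 and 3, with no value on array 2. Cyp2d34 had 1240, 1168 and 953 in high gainers and no value on any low-gainer array. Cyp2d26 had 1363, 1961 and 1570 in high gainers and 909 on low gainers replicate 3 alone. Blank cells kept these 3 probes out of the test, and no fold is given against a blank. All values of Cyp2d34 and Cyp2d26 and the low-gainer values of Cyp2d10 were dim, under 2848, the 10th percentile of tested signals. How many of all probes share such a pattern was not counted. Cyp2d22 was the only tested paralog, with 7334 ± 835 in high gainers and 4997 ± 1165 in low gainers (log2 ratio 0.57, limma adjusted p = 0.0684).

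Of the 9 tested genes of the wider Cyp2 family, 1 rose and 1 fell, with a median log2 ratio of 0.11. Cyp2a4, a steroid hydroxylase of liver whose copy Cyp2a5 is nearly identical and may be read by the same probe, was called higher, with 3305 ± 448 in high gainers and 1088 ± 115 in low gainers (3.03-fold, limma adjusted p = 0.000445). This probe was dim, at percentile 3.05 of the mean signal of tested probes, and its fold is uncertain, since it was 1.56 (adjusted p = 0.000662) with an offset of 2848 added before the logarithm. Cyp2f2, an enzyme of lung epithelium that oxidizes naphthalene, fell to 197137 ± 12741 in high gainers, against 335282 ± 28405 in low gainers, which is 1.70-fold lower (adjusted p = 0.00334). Cyp2a4 was called whichever array was left out, and Cyp2f2 only without low gainers replicate 2 (largest adjusted p 0.0209). Beside these liver genes, 2 of 9 hepatocyte markers were called higher, Alb by 1.51-fold (adjusted p = 0.00894) and Ttr by 1.58-fold (adjusted p = 0.00353), none was called lower and none was blank on all arrays. With the adipocyte markers set to no change, 0 of the 9 were called higher. The summed signal of the 9 ran from 435069 to 444266 in high gainers and from 303232 to 305706 in low gainers. Much of these sums was Alb, with 205927 in high gainers and 136651 in low gainers. The part of the hepatocyte markers in the result was not tested.

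Cd151 had signals of 23066, 21138 and 25944 in high gainers and of 6009, 11058 and 7203 in low gainers. The means were 23383 ± 2419 and 8090 ± 2639, and the fold was 2.98 (log2 ratio 1.57). Low gainers replicate 2 stood above the other two low-gainer arrays, so that single pairs of arrays gave folds between 1.91 and 4.32, and without that array the log2 ratio was 1.82.

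Cd151 joins the integrins that bind laminin, the main protein of the basement membrane around adipocytes and vessels. The 9 tested genes of this list were laminin chains, laminin-binding integrins and Bcam, another laminin receptor. None of the 9 was called by limma, and at an unadjusted p of 0.05 there were 7 higher and 0 lower, against 18.3% and 12.5% of all genes. All 9 had log2 ratios above 0, as had 56.6% of all genes, with a median of 0.36 against 0.037 over all genes, and 8 of the 9 stayed above 0 once the adipocyte markers were set to no change (median 0.19). Itga7, the integrin alpha chain best known from muscle, was highest, with 137245, 116879 and 108222 in high gainers and 78752, 77192 and 79710 in low gainers (log2 ratio 0.61, adjusted p = 0.0107). Lamb2, a laminin beta chain, had 377669 ± 20034 in high gainers and 250326 ± 34520 in low gainers (0.60, adjusted p = 0.0157). Lamb1, another beta chain, was lowest with a log2 ratio of 0.13 and overlapping pools. The endothelial and pericyte markers given with Plat and Thbd had medians of 0.31 and 0.48, and their part in the laminin and integrin ratios was not tested.

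Among 21 other tetraspanins tested, none was called higher and 4 were called lower by limma (3 higher and 6 lower at an unadjusted p of 0.05), with a median log2 ratio of 0.08. Cd37, a tetraspanin of B cells, fell to 43785 ± 5321 in high gainers, against 129526 ± 6498 in low gainers, which is 2.97-fold lower (adjusted p = 0.000309). Cd53, Tspan32 and Tspan33, which are known from blood cells, were 2.36-fold, 2.18-fold and 1.68-fold lower. Cd53 lost its call when high 1 or high 2 was omitted, and Tspan33 when high 1, high 2, high 3 or low 3 was (largest adjusted p 0.0133 and 0.021). Tspan17 had the highest ratio, 0.57 on the log2 scale (adjusted p = 0.0112). Lymphocyte markers moved the same way as these 4 and as the lower lectins, while macrophage markers as a set did not. Of 12 macrophage markers tested, 0 were called, 9 had a log2 ratio above 0 (56.6% of all genes did) and the median was 0.11. All 9 tested B cell markers were called lower, with summed signals of 147408 to 160726 in high gainers and 477213 to 502954 in low gainers, and so were 7 of 9 T cell markers, with sums of 98096 to 115647 in high gainers and 301644 to 335677 in low gainers, and none was blank on all arrays. Their part in these results was not tested.

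Pkp2 had signals of 30071, 33117 and 32565 in high gainers and of 17916, 9822 and 11145 in low gainers. The means were 31918 ± 1623 and 12961 ± 4342, and the fold was 2.55 (log2 ratio 1.35). Low gainers replicate 1 was well above the other two low-gainer arrays, and without it the log2 ratio was 1.61. The lowest high-gainer array exceeded that array 1.68-fold.

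Of 17 other desmosome and plakophilin genes, 4 were tested, with a median log2 ratio of -0.04. None was called higher, and no unadjusted p under 0.05 was found for a higher ratio. Pkp3, the plakophilin of epithelia, fell to 2588 ± 375 in high gainers, against 6304 ± 1048 in low gainers, which is 2.43-fold lower (limma adjusted p = 0.00227). The difference between the pools thus had opposite signs for the 2 plakophilins. The call of Pkp3 was lost when high 1 or low 3 was omitted (largest adjusted p 0.0106). Jup, plakoglobin, which desmosomes share with other cadherin junctions, had the highest log2 ratio at 0.35 (adjusted p = 0.239). Most epithelial markers were lower beside Pkp3. Of 7 tested, 4 were called lower and none higher, while Cldn3 had a log2 ratio of 0.19 and Cldn4 of -0.19 (limma adjusted p = 0.563 and 0.516). Summed signals were 91201 to 130461 in high gainers and 145727 to 172330 in low gainers. Much of these sums was Cldn4, with 77518 in high gainers and 88620 in low gainers. Among untested markers, Epcam had a value on all 3 low-gainer arrays (14220, 12152 and 11672) but on 1 high-gainer array (1001). Their part in the result was not tested.

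Slc16a12 had signals of 30748, 36068 and 30167 in high gainers and of 12516, 11328 and 10552 in low gainers. The means were 32328 ± 3252 and 11465 ± 989, and the fold was 2.82 (log2 ratio 1.49). The lowest high-gainer array was 2.41-fold above the highest low-gainer array, and the log2 ratio stayed between 1.41 and 1.56 whichever array was left out.

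Relatives of Slc16a12 carry lactate, pyruvate, thyroid hormone and amino acids. Of 7 tested monocarboxylate transporters and their chaperones, 0 were called by limma (1 higher and 2 lower at an unadjusted p of 0.05), and the median log2 ratio was 0.02. Slc16a10, a transporter of aromatic amino acids, was highest with 0.27 (adjusted p = 0.126) and Slc16a6 lowest with -0.67 (adjusted p = 0.042).

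Among creatine genes, 1 of uptake and 1 of synthesis rose, and 2 creatine kinases of muscle fell. Ckb, another creatine kinase, had 184217 ± 2802 in high gainers and 150301 ± 5543 in low gainers. It was not called (log2 ratio 0.29, limma adjusted p = 0.0601). Slc6a8, the creatine transporter, had 15892, 15296 and 17954 in high gainers and 9227, 9253 and 10064 in low gainers, a rise of 1.72-fold (limma adjusted p = 0.00266). Gamt, which completes creatine synthesis, rose to 33566 ± 2832 in high gainers, against 20057 ± 980 in low gainers (1.67-fold, adjusted p = 0.00332). Gatm, the enzyme before it, had 9242 ± 1308 in high gainers and 5669 ± 665 in low gainers (log2 ratio 0.70) and missed the call at an adjusted p of 0.0151. The muscle kinases fell, Ckm to 57129 ± 3404 in high gainers, against 103767 ± 5367 in low gainers (1.82-fold lower, adjusted p = 0.00127), and Ckmt2 to 11830 ± 1279 in high gainers, against 32089 ± 1140 in low gainers (2.72-fold lower, adjusted p = 0.000309).

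In this list of 7 tested genes, 2 rose and 2 fell, and the median log2 ratio was 0.38. The call of Gamt was lost whichever array was left out, and that of Slc6a8 when high 1 or any of low 1, low 2 and low 3 was omitted (largest adjusted p 0.0163 and 0.0153), and both were lost with the adipocyte markers set to no change (adjusted p = 0.0228 for Gamt and 0.0151 for Slc6a8). Of 12 tested markers of skeletal muscle, which include Ckm, 11 were called lower and none higher, with summed signals of 1175730 to 1246439 in high gainers and 2159390 to 2369122 in low gainers and none blank on all arrays. Their part in the lower kinase signals was not tested.

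Adap2 had signals of 41130, 42519 and 42986 in high gainers and of 23228, 22148 and 22603 in low gainers. The means were 42212 ± 965 and 22660 ± 542, and the fold was 1.86 (log2 ratio 0.90). Its ratio was the smallest of the 8 and its arrays the closest, with folds between single arrays from 1.77 to 1.94. In the order of folds it ranked 110, just after Epc1 (1.87-fold) and just before Pdgfrl (1.86-fold), and 102 probes of other genes had a fold at or above that of Adap2.

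None of the 22 other tested Arf GTPases and Arf GAPs was called higher by limma and 2 were called lower (7 higher and 5 lower at an unadjusted p of 0.05), with a median log2 ratio of 0.09. Adap1, the nearest relative of Adap2, had 9715 ± 380 in high gainers and 7712 ± 487 in low gainers (log2 ratio 0.33, adjusted p = 0.0525), and Arf6, the GTPase on which Adap2 acts, had 63144 ± 817 in high gainers and 82408 ± 2058 in low gainers (-0.38, adjusted p = 0.0228). Both sets of arrays were apart, but neither gene met the call. Acap1, an Arf GAP of endosomal recycling, fell to 2786 ± 688 in high gainers, against 7659 ± 782 in low gainers, which is 2.80-fold lower (adjusted p = 0.00214), and Smap2, an Arf GAP of clathrin-coated vesicles, was 1.85-fold lower (adjusted p = 0.0029). Acap1 lost its call when low 1 or low 2 was omitted, and Smap2 when high 2, low 1 or low 3 was (largest adjusted p 0.0113 and 0.0151). Agap1 had the highest ratio of the list at 0.60 on the log2 scale (adjusted p = 0.15).

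**Figure D2:**
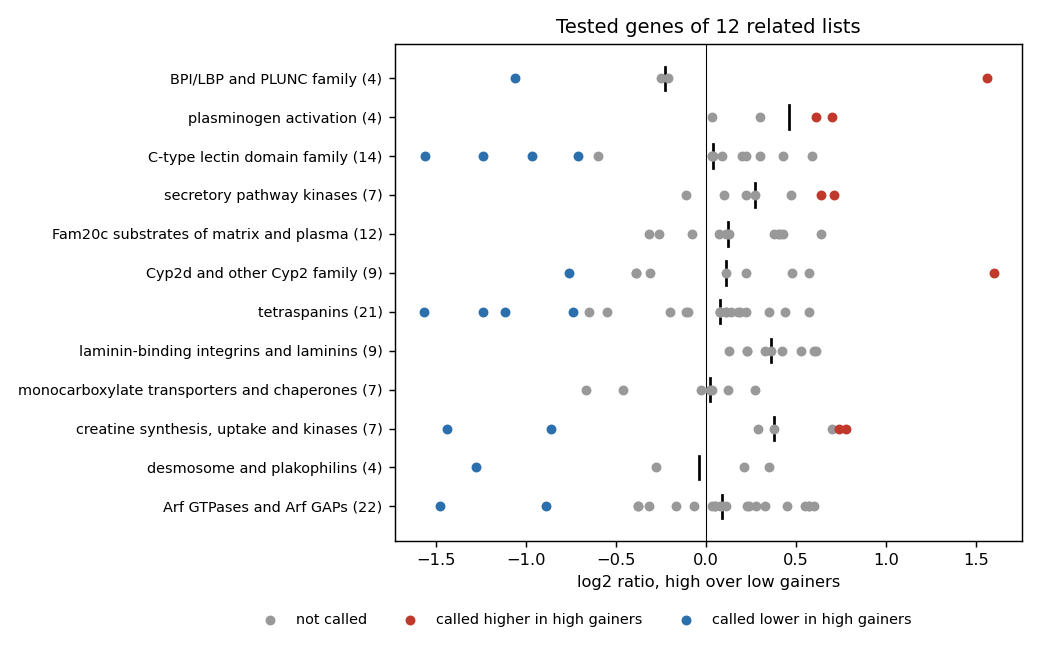
Log2 ratio, high over low gainers, of every tested gene in the 12 lists of relatives and partners of the 8 genes, which are themselves left out; red marks genes called higher, blue genes called lower and gray genes not called, vertical bars are list medians, and the number of tested genes is in parentheses. Red points appear in 5 rows led by Lbp and Cyp2a4, and the laminin row is the one with 9 gray points all right of 0.

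Over the 12 lists together, 120 of 269 genes were tested, of which 8 were called higher (6.67%, against 2.91% of all genes tested) and 15 lower (12.5%, against 4.04%), with a median log2 ratio of 0.112. The lists were chosen with earlier results of these data known, so nothing is read from these shares. Lbp and Cyp2a4 were the 2 higher genes called in all 6 fits that left out 1 array, and also the 2 still called when the adipocyte markers were set to no change, a step that changed every log2 ratio by -0.174. Of these, Cyp2a4 was among the dimmest 33.3% of probes and was not tested once those were removed. All 15 lower genes stayed called with the adipocyte markers set to no change. Of the 15, 7 (Bpifb3, Cd37, Ckm, Ckmt2, Clec2i, Clec9a and Tspan32) were called in all 6 fits that left out 1 array.

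**Figure D3:**
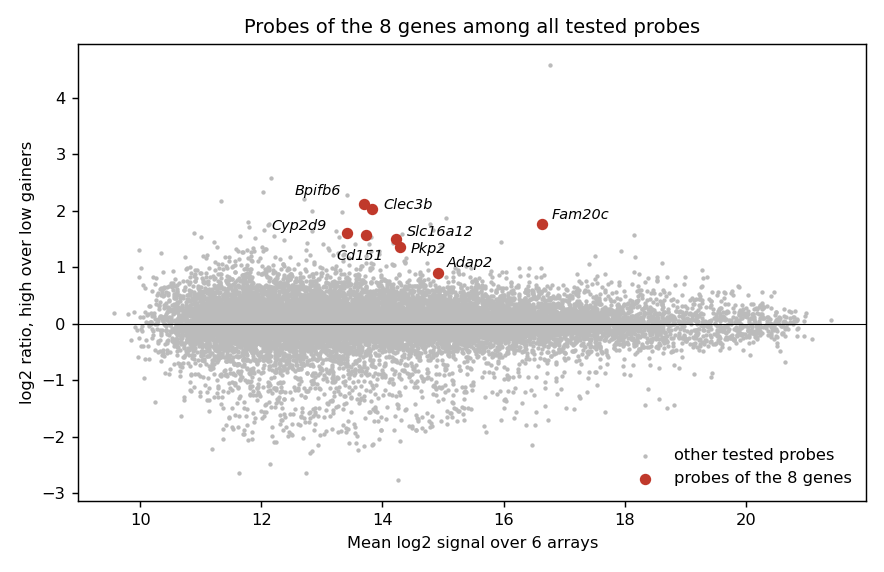
Log2 ratio, high over low gainers, against the mean log2 signal over 6 arrays for the 15821 tested probes (gray), with the probes of the 8 genes in red. The 8 points lie above the cloud around 0, from 0.90 for Adap2 to 2.12 for Bpifb6, and other genes with larger ratios, led by Mest, lie above them.

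The 8 genes are not the 8 largest rises on the arrays. Mest, an imprinted gene, had a fold of 23.9, Tph2 of 4.50, and between Clec3b and Fam20c lay Sfrp5 with 3.97 and Lipf with 3.91. Their ranks by fold among the 8883 probes with 1 symbol were 3 for Bpifb6, 4 for Clec3b, 7 for Fam20c, 12 for Cyp2d9, 13 for Cd151, 17 for Slc16a12, 23 for Pkp2 and 110 for Adap2. All 7 genes other than Adap2 remained at least 2-fold higher whichever array was left out.

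The technical spread differed among the 8. The coefficient of variation was larger in high gainers for 2 genes (Cyp2d9 and Slc16a12) and in low gainers for 6. It was 8.69% in high gainers and 30.6% in low gainers for Clec3b, 10.3% in high gainers and 32.6% in low gainers for Cd151, and 5.08% in high gainers and 33.5% in low gainers for Pkp2. Set against the 500 probes nearest in brightness, the spread of these 3 stood at percentiles 97, 96.2 and 96.4, while that of Adap2 stood at 1.4. The array that stood apart was not the same for each, being low gainers replicate 1 for Clec3b, where it was low, and for Pkp2, where it was high, and low gainers replicate 2 for Cd151.

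Genes with the profiles most like those of the 8 over the 6 arrays were found by the root mean square difference of log2 values, each profile centered on its mean. Bpifb6 was nearest to Lipf (0.15), Sfrp5 (0.17) and Fam20c (0.22), and Clec3b to Tph2 (0.26), Cd151 (0.30) and Lipf (0.32). Fam20c was nearest to Cyp8b1 (0.12), Tfpi2 (0.16) and Sfrp5 (0.17), and Slc16a12 to Cyp8b1 (0.11), Tfpi2 (0.12) and Lbp (0.13). Cyp2d9 was nearest to Lbp (0.10), Cyp2a4 (0.14) and Cyp8b1 (0.16). Cyp8b1, a sterol hydroxylase of bile acid synthesis, was thus among the 3 nearest of 3 genes. Cd151 was nearest to Mettl7b (0.20), Uncx (0.21) and Emp1 (0.23), Pkp2 to Muc19 (0.13), Kcnj14 (0.14) and Omd (0.16), and Adap2 to Rcor2, Cyb561 and Gsdme (0.05 each). The difference between the pools makes up most of each profile, so this likeness mainly says that the folds were close.

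**Figure D4:**
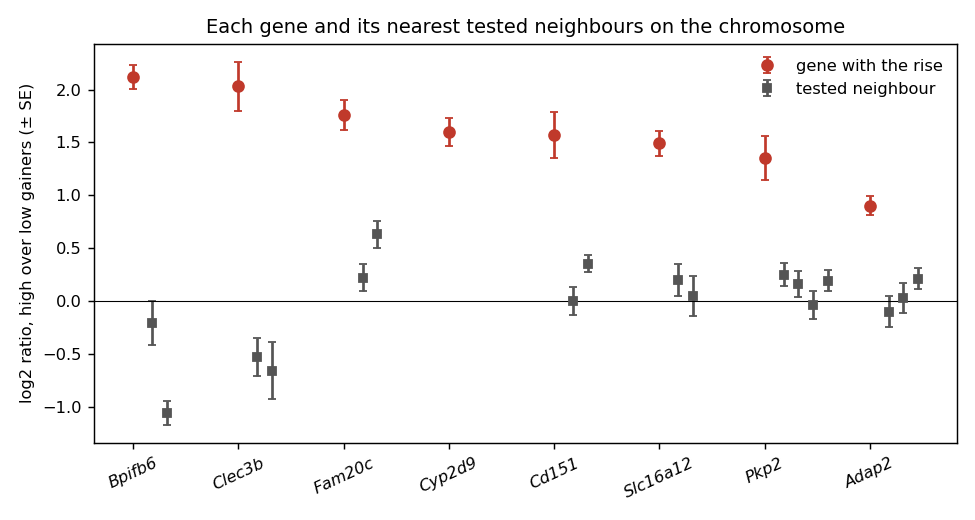
Log2 ratio, high over low gainers (± SE of the limma fit), of each of the 8 genes (red circles) and of its tested neighbors among the nearest 2 protein-coding genes on either side (gray squares, in chromosomal order). Neighbors lie between -1.06 and 0.63, and Cyp2d9 has no tested neighbor. Each tested neighbor lies below the gene beside it, which the choice of the 8 by a large rise made likely.

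Among the genes beside the 8 on the chromosomes, no rise was called. The 2 nearest protein-coding genes on either side were taken for each of the 8, a look added after the data were seen, and 17 of these 32 neighbors were tested. None was called higher and 1 lower by limma, against 2.91% and 4.04% of all genes, so that with 17 genes a count of 0 is near the background. At an unadjusted p of 0.05, 3 were higher and 3 lower (18.3% and 12.5% of all genes), 10 had a ratio above 0 (56.6% of all genes), and the median log2 ratio was 0.05. The lower one was Bpifb3 beside Bpifb6, and Bpifb2 on the other side had a log2 ratio of -0.21 (adjusted p = 0.554). Beside Clec3b, Zdhhc3 had -0.53 (adjusted p = 0.0955) and Cdcp1 -0.66 (adjusted p = 0.141). Pdgfa, a growth factor gene close to Fam20c, was the highest neighbor at 0.63 (adjusted p = 0.0195). Beside Cd151, Pnpla2, the adipose triglyceride lipase, had signals of 1541190 in high gainers and 1542915 in low gainers (0.00, adjusted p = 0.999), and Tspan4, another tetraspanin, had a log2 ratio of 0.35 (adjusted p = 0.0303). Ifit1 and Pank1 beside Slc16a12 had 0.20 and 0.05 (adjusted p = 0.423 and 0.899). The neighbors of Pkp2 (Cebpd, Spidr, Yars2 and Dnm1l) ranged from -0.04 to 0.25, and those of Adap2 (Tefm, Rnf135 and Rhot1) from -0.10 to 0.21.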

How the data were processed

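DIG-labeled cRNA was made from 1 μg of total RNA of each pool, and the authors quantile-normalized the chemiluminescent signal intensities of the arrays, per their methods. The deposited values are these intensities on a linear scale, blank where an array has no value (18018 to 20605 of 33012 probes had one), for a reason that no source used here states. The number of arrays limits the precision. Arrays correlated at r = 0.988 to 0.994 within a pool and 0.972 to 0.98 between pools, over probes and not replicates.

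The 15821 probes with 6 values were log2 transformed and fitted with limma 3.58.1 (lmFit, eBayes) in R 4.3.3, all 3 high-gainer against all 3 low-gainer arrays, with no covariate. A call needs a Benjamini-Hochberg adjusted p under 0.01 over all these probes and a fold of at least 1.5. The methods tested only features that passed limits on signal to noise and on quality flags, whereas here a probe needed a value on all 6 arrays. The methods set the same fold and an unadjusted ANOVA p of 0.01, so that the adjustment was added here. The procedure was tested on simulated data. A probe was named where the annotation gave 1 symbol (14411 probes, with several for 247 and none for 18354), updated or kept through gene identifiers for 14402, and a gene with several probes stands by its brightest. No source used here gives a genome build for the probes.

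The 8 genes and all lists were chosen with earlier results of these data known. Named genes are the 8, every called gene and the highest and lowest of each list of relatives, the 3 probes nearest in profile to each of the 8, and the probes just above and below the smallest fold. Cyp2d paralogs, close relatives, neighbors, genes with larger folds and marker genes that moved with a list were named in addition, after their values were seen. Alternatives covered normalization, centering, offset, filters, variance model, test, fold threshold and leaving out arrays.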

Additional observations from a re-analysis of the deposited data

How the results depend on the processing

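Every one of the 8 log2 ratios kept its sign under all alternatives run, and 96 of 104 alternative values lay within 1 SD of the value given. The 8 others came from setting the adipocyte markers to no change (Bpifb6 1.95, Cyp2d9 1.42, Slc16a12 1.32, Adap2 0.72) and from an offset of 2848 added before the logarithm (Bpifb6 1.73, Cyp2d9 1.26, Slc16a12 1.30, Adap2 0.82). Setting the markers to no change moved every ratio by the same -0.174. The offset also lowered Clec3b from 2.03 to 1.67 and Cd151 from 1.57 to 1.28. These 2 values lay within 1 SD because the technical SDs of the 2 genes were large (0.36 and 0.34 on the log2 scale). The kept signs and the count within 1 SD are no test of the rises. The genes were chosen for a large rise and their pools did not overlap, so leaving out 1 array could not reverse a sign. Some settings could hardly move a ratio. Each gene had 1 probe, leaving nothing to average. A block for array number keeps the ratio, as every number occurs in both pools. Repeating the quantile step or centering on array medians changed only Cd151, from 1.57 to 1.58. The counts of calls did change with the processing. Of all probes, 396 were called higher and 632 lower, and of related genes 8 and 15. With the adipocyte markers set to no change, 125 probes and 2 related genes were called higher. Without the dimmest 33.3% of probes, 8 related genes were called lower, since Acap1, Bpifb3, Clec1b, Clec2i, Clec9a, Pkp3 and Tspan33 were then not tested, nor was Cyp2a4 among the higher ones. With the offset, Clec1b (1.28-fold) and Tspan33 (1.45-fold) were no longer called lower. The methods' t-test at its unadjusted threshold called 474 probes higher and 679 lower, and 10 and 15 related genes. After Benjamini-Hochberg adjustment it called 46 probes higher and 111 lower, and 2 related genes each way. A 2-fold threshold left 98 probes higher and 402 lower, and 2 related genes higher and 9 lower. Leaving out 1 array gave 105 to 319 probes higher, 368 to 493 lower, 2 to 7 related genes higher and 9 to 13 lower, and both probe counts were lowest without high gainers replicate 1. The array numbers do not pair the arrays (correlations of same-numbered deviations 0.038, -0.11 and 0.266). With array number as a replicate block, 173 probes and 3 related genes (Lbp, Cyp2a4 and Slc6a8) were called higher, and Clec1b, Clec4n, Cyp2f2, Smap2 and Tspan33 were no longer called lower.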
